A study of Mus musculus with 2 samples.

Results

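Guanylate-binding proteins (GBPs) and immunity-related GTPases (IRGs) are GTP-hydrolysing proteins that mouse cells make in quantity when they sense interferon-gamma. Levels of 10 of their genes, Gbp2, Gbp3, Gbp4, Gbp5, Gbp7, Igtp, Irgm1, Irgm2, Iigp1 and Ifi47, were followed across the cell classes of 4T1 tumours. The genes were listed by symbol as interferon-gamma-induced GTPases, with earlier results of these data known, and all 10 symbols were found among the 55357 genes of both count matrices. Interferon-gamma comes mainly from T cells and natural killer (NK) cells and binds a receptor built from Ifngr1 and Ifngr2. The kinases Jak1 and Jak2 then pass the signal on, and the gene of the transcription factor Irf1 is turned on. GBPs and the IRGs Iigp1 and Ifi47 gather on vacuoles that enclose intracellular microbes, while Irgm1, Irgm2 and Igtp hold other IRGs inactive on the cell's own membranes.

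The tumours came from 4T1 cells, a mouse triple-negative breast cancer line, in BALB/c mice, and were profiled as 2 droplet-based single-cell RNA libraries. Mice of the AptCD4-LNT library received 3 doses of AptCD4-LNT, of 5, then 4, then 3 in units of 1000000 cells, spaced by 3 days, and their tumours were taken at 9 days. Mice of the Untreated library carried the same tumours and received PBS. Each library pooled 3 tumours, so values of single mice cannot be separated. No other allele, agent, age or sex is given in the labels. With 1 library a group there was no replicate and no test, and every interval below is a 95% interval for counting error alone.

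Promoter sequence upstream of the annotated start was available from RefSeq (GRCm38.p6) for 8 of the 10 genes, all but Gbp4 and Iigp1. A pair of elements known from interferon-induced genes were searched on both strands in the 250 bases before the start. One was GAAANNGAAA, the core of the interferon-stimulated response element (ISRE) that Irf factors bind, and the other TTCNNNGAA, the core of the gamma-activated site (GAS). The ISRE core was found in 7 of the 8 genes, all but Ifi47, against 2.98% of 32851 promoters in the table. The GAS core was found in 4 of the 8, namely Gbp5, Gbp7, Igtp and Irgm2, against 7.02% of all promoters. The 2 motifs can overlap by shared letters, and a match is a description of the sequence only.

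The 6 windows that follow show the 120 bases before the start of the genes whose ISRE core lies closest to it, with the matching bases in capitals.
Gbp2: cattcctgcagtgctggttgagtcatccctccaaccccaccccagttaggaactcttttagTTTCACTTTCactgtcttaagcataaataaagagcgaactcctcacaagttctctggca
Gbp3: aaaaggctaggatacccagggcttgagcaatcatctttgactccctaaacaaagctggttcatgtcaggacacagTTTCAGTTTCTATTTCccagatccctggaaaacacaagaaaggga
Gbp7: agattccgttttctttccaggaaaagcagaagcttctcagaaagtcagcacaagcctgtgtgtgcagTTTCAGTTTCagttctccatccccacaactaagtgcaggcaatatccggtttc
Igtp: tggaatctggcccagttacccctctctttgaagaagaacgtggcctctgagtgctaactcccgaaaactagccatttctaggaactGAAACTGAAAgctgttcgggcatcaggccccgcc
Irgm2: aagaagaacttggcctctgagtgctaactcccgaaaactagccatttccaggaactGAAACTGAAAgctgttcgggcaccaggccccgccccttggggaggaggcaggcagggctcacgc
Irgm1: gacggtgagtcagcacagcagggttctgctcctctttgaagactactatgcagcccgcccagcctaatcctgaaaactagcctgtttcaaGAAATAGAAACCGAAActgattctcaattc
In GRCm38.p6 these windows lie at chr3:142620543-142620662 (Gbp2), chr3:142559924-142560043 (Gbp3), chr3:142530216-142530335 (Gbp7), chr11:58199436-58199555 (Igtp) and chr11:58214857-58214976 (Irgm2) on the plus strand, and at chr11:48871421-48871540 (Irgm1) on the minus strand. Gbp3 and Irgm1 each hold 2 overlapping matches, and a second annotated start of Gbp3 holds none. In Gbp5 the ISRE core lies farther out, 156 to 165 bases before the start. Igtp and Irgm2 are near copies here, with 194 of 215 aligned promoter bases identical (90.2%), and both carry a GAS core a few bases before the ISRE core.

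The AptCD4-LNT library held 8931 barcodes and 98968100 UMIs (unique molecular identifiers, 1 per captured transcript), and the Untreated library 20040 barcodes and 131295224 UMIs. After filtering, 8627 AptCD4-LNT cells with a median of 8573 UMIs and 18216 Untreated cells with a median of 4482 UMIs remained. A set of 42 barcode sequences occurred in both libraries, and with them left out the number of the 10 genes past 1.5-fold was the same in each of the 7 classes that kept 50 cells a library. Cells were grouped into classes by marker genes, each called "-like", and 8 classes had at least 50 cells in both libraries. These were epithelial-like (3851 AptCD4-LNT and 9793 Untreated cells), fibroblast-like (848 and 729), pericyte-like (50 and 97), endothelial-like (59 and 161), macrophage-like (1036 and 3520), monocyte-like (400 and 210), neutrophil-like (2129 and 2977) and T-like (68 and 473). Of the markers of each class, all stood at 20 CPM or more in both libraries, except 1 of 9 epithelial markers, the keratin gene Krt5, which was at 0 in AptCD4-LNT epithelial-like cells. The labels call the material tumour cells, whereas 44.6% of AptCD4-LNT and 53.8% of Untreated cells were epithelial-like. All 10 GTPase genes had at least 20 UMIs over both libraries in all 8 classes, so none was dropped. Levels are CPM, the share of a class's summed UMIs that a gene took, times 1000000. Values in brackets after a pair of levels are log2 ratios with AptCD4-LNT on top and, where given, their intervals.

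Where the genes were used differed by class and by gene, within each library. Neutrophil-like cells ranked first of the 8 classes for 7 genes in the AptCD4-LNT library and for 6 in the Untreated library. Gbp2 reached 303 CPM in AptCD4-LNT neutrophil-like cells, ahead of epithelial-like cells at 111 CPM, with intervals that do not overlap. In the Untreated library Gbp2 stood at 432 CPM in neutrophil-like cells, followed by monocyte-like cells at 318 CPM and epithelial-like cells at 258 CPM. Gbp4 followed another order and was highest in endothelial-like cells of both libraries, at 188 CPM in the AptCD4-LNT library and 395 CPM in the Untreated library. Iigp1, an effector IRG, was highest in pericyte-like and endothelial-like cells of both libraries and lowest in neutrophil-like cells. Its level was 261 CPM in pericyte-like, 167 CPM in endothelial-like, 81.2 CPM in epithelial-like, 77.2 CPM in macrophage-like, 52.7 CPM in fibroblast-like and 5.88 CPM in neutrophil-like cells of the AptCD4-LNT library. In the Untreated library Iigp1 stood at 742 CPM in endothelial-like, 682 CPM in pericyte-like, 490 CPM in fibroblast-like and 21.8 CPM in neutrophil-like cells, and of these 4 levels only those of endothelial-like and pericyte-like cells cannot be told apart. Fibroblast-like cells ranked last for 8 genes in the AptCD4-LNT library, with Irgm2 and Iigp1 the exceptions, whereas in the Untreated library the last place fell to 5 different classes. Many neighbours in these orders had overlapping intervals, as the plot of levels by class shows.

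**Figure D1:**
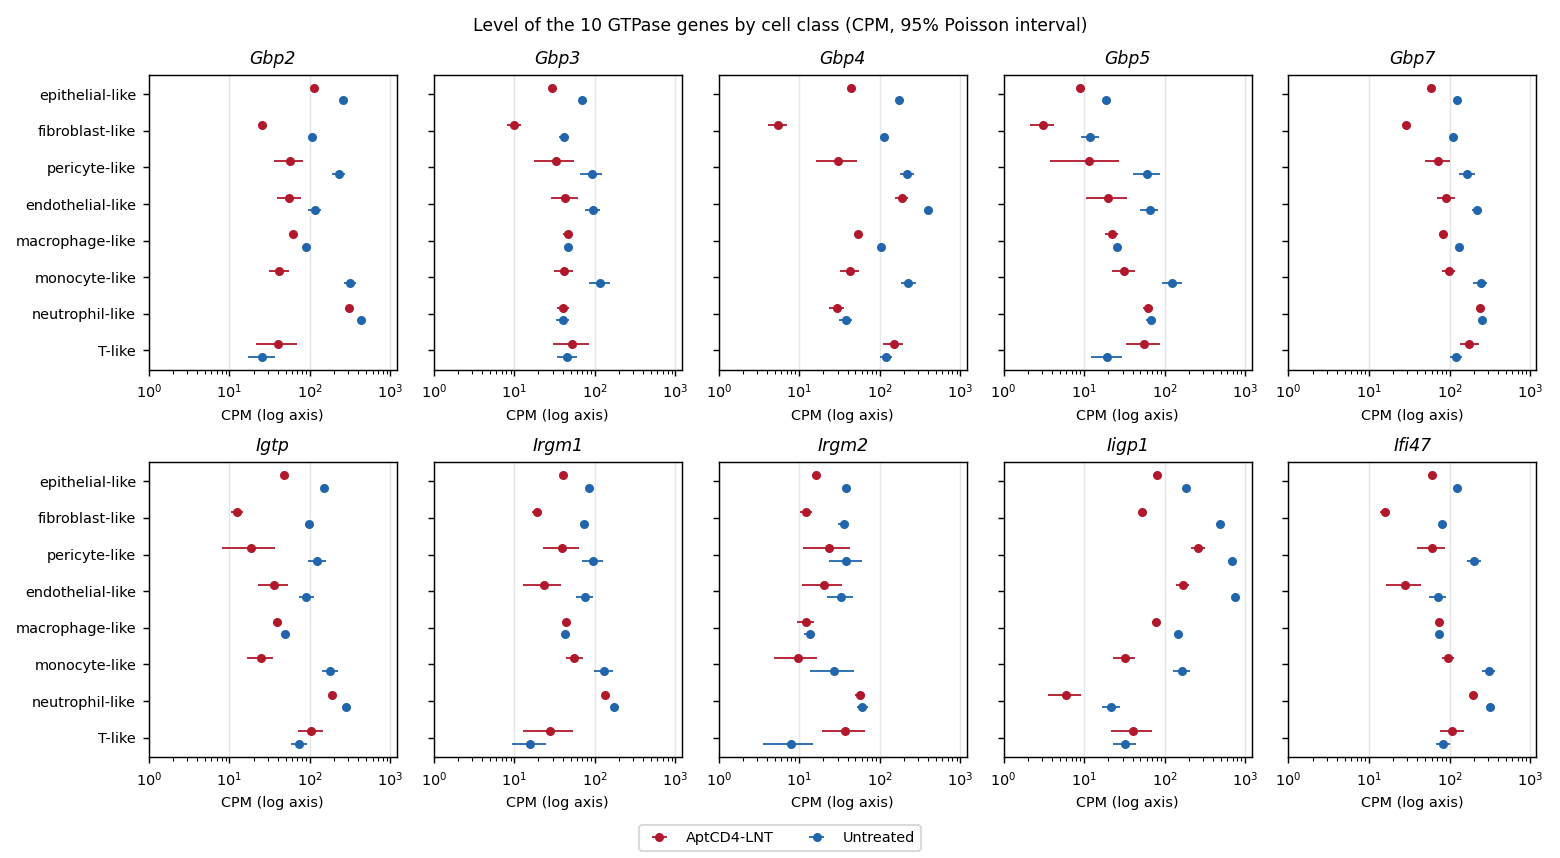
CPM of each of the 10 genes (log axis) in each of the 8 cell classes, AptCD4-LNT in red above Untreated in blue, with 95% Poisson intervals of the counts. The red points lie left of the blue ones in the epithelial-like, fibroblast-like, pericyte-like, endothelial-like and monocyte-like rows of all 10 genes, and Iigp1 is lowest in neutrophil-like cells in both libraries.

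Epithelial-like cells, which in these tumours include the 4T1 cells, had less RNA of all 10 GTPase genes in the AptCD4-LNT library. The 10 genes together made up 499 CPM in AptCD4-LNT epithelial-like cells, against 1228 CPM in Untreated epithelial-like cells. All 10 were lower by more than 1.5-fold, beside 6.56% of the 17340 genes measured in that class, and none was higher, beside 9.93%, and the median log2 ratio was -1.21, beside 0.06 over all genes. The counts behind these values were large, with 35496 UMIs of the 10 genes in the AptCD4-LNT library and 105651 in the Untreated library.

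Among the GBPs of epithelial-like cells, Gbp4, which in mice restrains the interferon factor Irf7, had the ratio farthest from 0. Gbp4 was at 44.4 CPM in the AptCD4-LNT library, against 174 CPM in the Untreated library, a log2 ratio of -1.98 (-2.03 to -1.92). Gbp2, a GBP that coats pathogen vacuoles, was at 111 CPM in AptCD4-LNT cells, against 258 CPM in Untreated cells (-1.22). Gbp3 stood at 29.7 CPM in AptCD4-LNT cells, against 70.1 CPM in Untreated cells (-1.24). The interval of Gbp4 lay clear of those of the other 2. Gbp7 was at 59.1 CPM in AptCD4-LNT cells, against 122 CPM in Untreated cells (-1.05), and Gbp5, known for its part in inflammasome assembly, at 8.98 CPM in AptCD4-LNT cells, against 18.6 CPM in Untreated cells (-1.05).

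Regulatory IRGs of the same cells ran in the same direction. Igtp was at 47.9 CPM in AptCD4-LNT epithelial-like cells, against 152 CPM in Untreated ones, a log2 ratio of -1.67 (-1.72 to -1.61). Irgm1 was at 40.7 CPM in AptCD4-LNT cells, against 85.5 CPM in Untreated cells (-1.07), and Irgm2 at 16.1 CPM in AptCD4-LNT cells, against 38.4 CPM in Untreated cells (-1.26). Igtp and Irgm2, whose promoter windows are nearly alike, differed in ratio beyond counting error. The effector Iigp1 was at 81.2 CPM in AptCD4-LNT cells, against 187 CPM in Untreated cells (-1.20), and Ifi47 at 59.7 CPM in AptCD4-LNT cells, against 122 CPM in Untreated cells (-1.03).

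Clusters split the epithelial-like class by state, and the lower level held within them except in cluster 18. The summed level of the 10 genes was lower in the AptCD4-LNT library in 8 of 8 clusters, and in 7 of them the interval lay below 0. It ranged from -1.66 in cluster 5, at 331 CPM in AptCD4-LNT cells, against 1049 CPM in Untreated cells, to -0.88 in cluster 2 (Krt14, Krt7, Krt17) among those 7. Cluster 18, led by Ifit3, Ifit1 and Rsad2, held 32 AptCD4-LNT and 213 Untreated cells. There the 10 genes summed to 1883 CPM in AptCD4-LNT cells and 1994 CPM in Untreated cells, a log2 ratio of -0.08 (-0.18 to 0.02). Single genes of cluster 18 went both ways, with a median log2 ratio of 0.03. Gbp2 was at 272 CPM in AptCD4-LNT cells, against 429 CPM in Untreated cells, whereas Iigp1 was at 342 CPM in AptCD4-LNT cells, against 277 CPM in Untreated cells. The libraries filled the clusters unequally, with 31.8% of AptCD4-LNT epithelial-like cells in cluster 7 against 7.06% of Untreated ones, and 13.4% in cluster 6 against 29.4%. Given the Untreated cluster shares in both libraries, the median ratio was -0.97, still with all 10 genes past 1.5-fold.

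Fewer single tumour cells showed any of the genes once depth was made equal. With each cell thinned to 1000 UMIs, 1148 of 3781 AptCD4-LNT epithelial-like cells (30.4%, 28.9 to 31.9%) had a UMI of at least 1 of the 10 genes, against 5588 of 9527 Untreated ones (58.7%, 57.7 to 59.6%). Thinning left out 70 shallower AptCD4-LNT cells and 266 Untreated ones. Without thinning the shares were 87.3% in AptCD4-LNT cells and 91.4% in Untreated cells, at median depths of 17336 UMIs in AptCD4-LNT cells and 7079 UMIs in Untreated cells. Cells with several of the genes were fewer as well. At 2000 UMIs a cell, 3 or more of the 10 were seen in 9.24% of AptCD4-LNT epithelial-like cells and 29.5% of Untreated ones, and none in 55.0% of AptCD4-LNT and 23.0% of Untreated ones. No class in these tumours is known to lack the 10 genes altogether. Iigp1 had its lowest level of the 8 classes in neutrophil-like cells of both libraries. At 1000 UMIs Iigp1 was seen in 0.229% of AptCD4-LNT neutrophil-like cells and 1.64% of Untreated ones. In epithelial-like cells the shares were 6.16% in the AptCD4-LNT and 14.6% in the Untreated library. Because this gene and class were picked by their level, they give no independent measure of shed RNA, whose part was not tested. Thinning left out 384 of 2129 AptCD4-LNT and 2002 of 2977 Untreated neutrophil-like cells, so the cells kept are the deeper ones, most of all in the Untreated library. Median depths before thinning were 1351 UMIs in AptCD4-LNT and 809 UMIs in Untreated neutrophil-like cells.

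**Figure D2:**
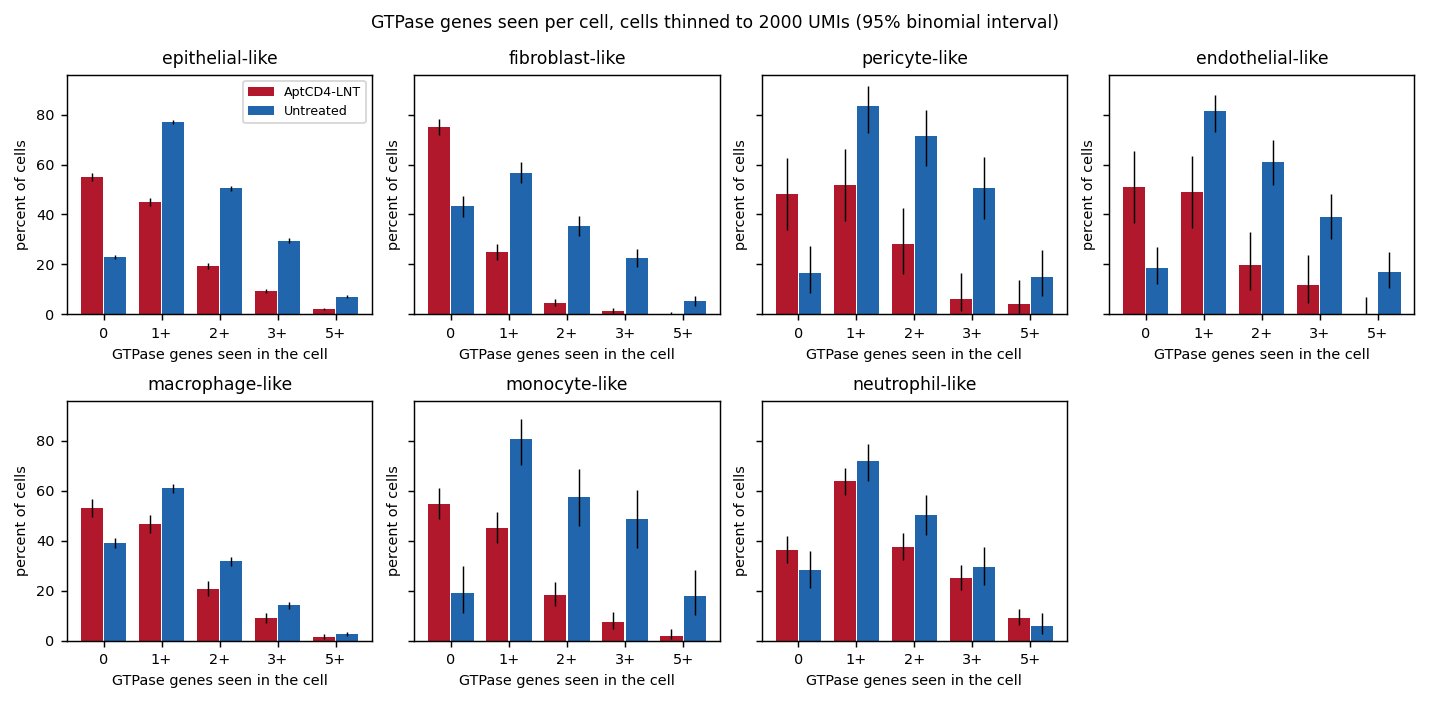
Percent of cells of a class in which none, at least 1, at least 2, at least 3 or at least 5 of the 10 genes had a UMI after thinning each cell to 2000 UMIs, AptCD4-LNT in red left of Untreated in blue, with 95% exact binomial intervals. T-like cells are not drawn because too few AptCD4-LNT cells reach that depth. In epithelial-like cells the share with none is 55.0% in the AptCD4-LNT library and 23.0% in the Untreated library.

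Markers of other cell types moved with these ratios only in part. In epithelial-like cells the 5 myeloid markers summed to 137 CPM in the AptCD4-LNT library and 226 CPM in the Untreated library, the 3 fibroblast markers to 215 CPM in AptCD4-LNT and 77.7 CPM in Untreated cells, with no marker at 0. The 2 endothelial and the 2 T cell markers each summed to under 2 CPM in both libraries. Cells without any UMI of those markers were 118 AptCD4-LNT cells (3.06%) and 2283 Untreated cells (23.3%). In them the median log2 ratio was smaller, at -0.56, and 4 of the 10 genes were past 1.5-fold. They were also shallower, with median depths of 5418.5 UMIs in AptCD4-LNT and 4961 UMIs in Untreated cells. The whole class stood at 17336 UMIs in AptCD4-LNT and 7079 UMIs in Untreated cells, so this setting changes depth as well as markers. The part of these markers in the result was not tested beyond that.

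Fibroblast-like cells had the lowest median ratio of the 8 classes. The 10 genes summed to 186 CPM in AptCD4-LNT fibroblast-like cells, against 1160 CPM in Untreated ones, and all 10 were lower by more than 1.5-fold, beside 15.6% of 13205 genes, and none was higher, beside 10.4%. Their median log2 ratio was -2.05, beside -0.05 over all genes. Gbp4 was at 5.41 CPM on 60 UMIs in the AptCD4-LNT library, against 112 CPM on 575 UMIs in the Untreated library, a log2 ratio of -4.37 (-4.78 to -3.99). Iigp1 was at 52.7 CPM in AptCD4-LNT cells, against 490 CPM in Untreated cells (-3.22, -3.35 to -3.09). Igtp followed at 12.5 CPM in AptCD4-LNT cells, against 97.2 CPM in Untreated cells (-2.95). The other 7 genes lay between -2.35 for Ifi47 and -1.55 for Irgm2.

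Both fibroblast clusters shared the direction. Cluster 3 (Col3a1, Dcn, Sfrp2) held 75.6% of AptCD4-LNT and 34.4% of Untreated fibroblast-like cells, and its 10 genes summed to 145 CPM in AptCD4-LNT cells, against 355 CPM in Untreated cells, a log2 ratio of -1.29. Cluster 21 (Tagln, Tnc, Acta2) held 24.4% of AptCD4-LNT and 65.6% of Untreated ones, with 287 CPM in AptCD4-LNT cells, against 1635 CPM in Untreated cells, a ratio of -2.51. Epithelial markers in fibroblast-like cells summed to 130 CPM in the AptCD4-LNT library and 697 CPM in the Untreated library, and myeloid markers to 380 CPM in the AptCD4-LNT library and 1112 CPM in the Untreated library, with none of these markers at 0. In the 106 AptCD4-LNT and 134 Untreated fibroblast-like cells with no UMI of other classes' markers, the median ratio was -1.85 and 9 of 10 genes were past 1.5-fold.

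Pericyte-like and endothelial-like cells were few, and the intervals were wide. In pericyte-like cells, the contractile cells around small vessels, all 10 genes were lower by more than 1.5-fold, beside 14.3% of 6274 genes, and none was higher, beside 18.8%, with a median log2 ratio of -1.61. Gbp4 was at 30.3 CPM on 13 UMIs in AptCD4-LNT pericyte-like cells, against 221 CPM on 109 UMIs in Untreated ones (-2.87, -3.82 to -2.03). Igtp was at 18.6 CPM on 8 UMIs in AptCD4-LNT cells, against 123 CPM on 61 UMIs in Untreated cells (-2.73, -4.00 to -1.66). Iigp1 had the most UMIs, at 261 CPM in AptCD4-LNT cells, against 682 CPM in Untreated cells (-1.39). The ratio of Irgm2 was -0.72 with an interval of -1.99 to 0.45, so no direction is given for it. The other 6 genes lay between -2.38 for Gbp5 and -1.20 for Gbp7. Epithelial markers summed to 524 CPM in AptCD4-LNT and 1512 CPM in Untreated pericyte-like cells, and myeloid markers to 1569 CPM in AptCD4-LNT and 2522 CPM in Untreated ones. Fibroblast markers summed to 11216 CPM in AptCD4-LNT and 6675 CPM in Untreated pericyte-like cells. The endothelial marker Cdh5 and the T cell marker Cd3e were at 0 in both libraries, and the part of the other markers in the result was not tested.

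In endothelial-like cells all 10 genes were again lower by more than 1.5-fold, beside 11.5% of 7882 genes, and none was higher, beside 9.82%, with a median log2 ratio of -1.31. Iigp1 had the lowest ratio, at 167 CPM in AptCD4-LNT endothelial-like cells against 742 CPM in Untreated ones (-2.15, -2.46 to -1.86). Gbp4, whose level was highest in this class, was at 188 CPM in AptCD4-LNT cells, against 395 CPM in Untreated cells (-1.07, -1.38 to -0.77). Irgm2 stood on 13 UMIs in AptCD4-LNT and 31 in Untreated cells, and its interval of -1.78 to 0.26 includes 0. The other 7 genes lay between -1.71 for Irgm1 and -1.05 for Gbp2. Fibroblast markers summed to 2392 CPM in AptCD4-LNT and 93.7 CPM in Untreated endothelial-like cells, while epithelial markers summed to 222 CPM in AptCD4-LNT and 257 CPM in Untreated ones. Myeloid markers summed to 539 CPM in AptCD4-LNT and 327 CPM in Untreated ones. The part of those markers in the ratios was not tested.

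**Figure D3:**
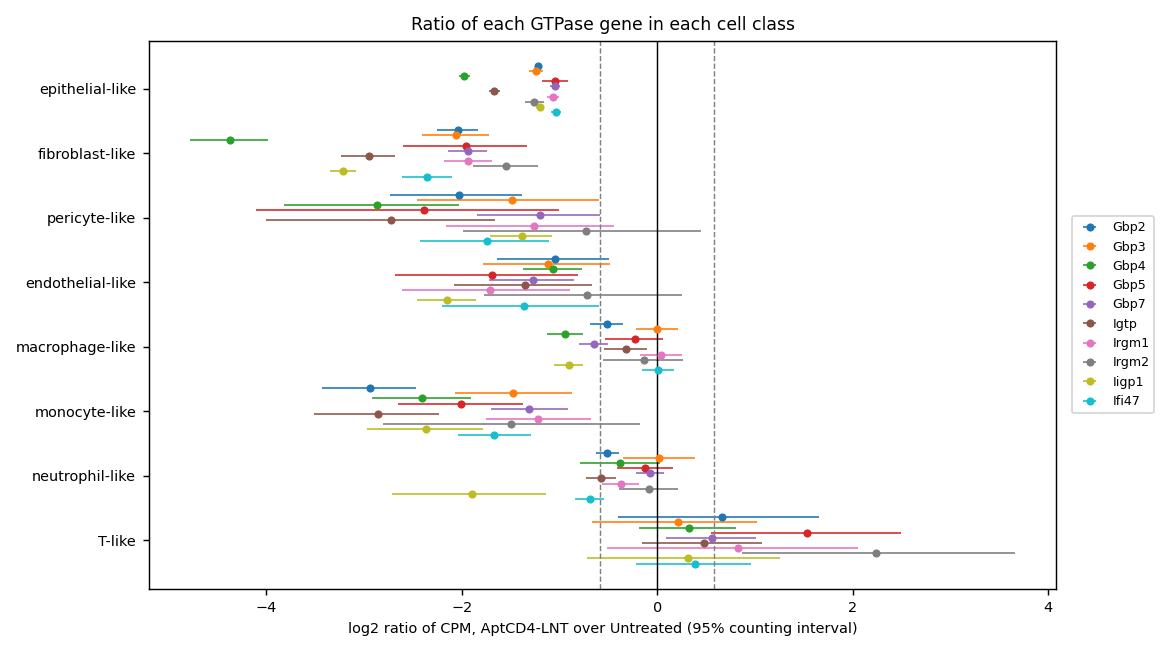
Log2 ratio of CPM, AptCD4-LNT over Untreated, for each of the 10 genes (colours) in each cell class, with 95% counting intervals, a solid line at 0 and dashed lines at 1.5-fold. All 10 points lie left of the lower dashed line in the epithelial-like, fibroblast-like, pericyte-like, endothelial-like and monocyte-like rows, 3 in the macrophage-like row and 2 in the neutrophil-like row, and all 10 T-like points lie right of 0, where Gbp2 and Irgm1 change sign if the lymphocyte cluster is not split.

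Monocyte-like cells, the circulating precursors of tumour macrophages, also had all 10 genes lower by more than 1.5-fold, beside 9.93% of 7128 genes, and none was higher, beside 24.5%, with a median log2 ratio of -1.84. Gbp2 was at 41.4 CPM on 52 UMIs in AptCD4-LNT monocyte-like cells, against 318 CPM on 130 UMIs in Untreated ones (-2.94, -3.44 to -2.47). Igtp was at 24.7 CPM in AptCD4-LNT cells, against 179 CPM in Untreated cells (-2.86), and Gbp4 at 43.0 CPM in AptCD4-LNT cells, against 228 CPM in Untreated cells (-2.41). The other 7 genes lay between -2.37 for Iigp1 and -1.22 for Irgm1. Different clusters held the class, with 78.8% of AptCD4-LNT monocyte-like cells in sub-cluster 14.2 and 68.6% of Untreated ones in sub-cluster 14.7. Sub-cluster 14.2 scored higher on macrophage than on monocyte markers and took its name from its leading genes. Within sub-clusters the summed ratios were smaller, at -1.24 in 14.0, -0.99 in 14.2 and -0.62 in 14.7, with all 3 intervals below 0. Under equal sub-cluster shares the median ratio was -0.82, 6 genes were past 1.5-fold, and Gbp5 turned to 0.070. The endothelial markers summed to 17.5 CPM in AptCD4-LNT and 46.5 CPM in Untreated monocyte-like cells, the T cell markers were at or near 0, and the epithelial, myeloid and fibroblast lists differed by less than 1.5-fold.

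Macrophage-like cells pooled over clusters differed little. Their 10 genes summed to 514 CPM in the AptCD4-LNT library and 717 CPM in the Untreated library. Gbp4, Gbp7 and Iigp1 were lower by more than 1.5-fold, 3 of 10 beside 8.48% of 12698 genes, none was higher, beside 19.4%, and the median log2 ratio was -0.28, beside 0.20 over all genes. Gbp4 was at 53.5 CPM in AptCD4-LNT cells, against 103 CPM in Untreated cells (-0.94), Iigp1 at 77.2 CPM in AptCD4-LNT cells, against 145 CPM in Untreated cells (-0.90), and Gbp7 at 82.3 CPM in AptCD4-LNT cells, against 129 CPM in Untreated cells (-0.65). Gbp2 (-0.52) and Igtp (-0.32) had intervals below 0 without reaching 1.5-fold, and the intervals of Gbp3, Gbp5, Irgm1, Irgm2 and Ifi47 included 0.

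Inside most single macrophage clusters the gap was wider than the pooled -0.48. The summed level was lower in the AptCD4-LNT library in 9 of 9 clusters, by -0.42 to -1.81, and in 8 of them the interval lay below 0. The exception was sub-cluster 14.8, at -0.42 with an interval of -0.90 to 0.03. Several clusters rest on few AptCD4-LNT UMIs of the 10 genes. These were 11 in sub-cluster 14.1, 14 in cluster 17, which gave the -1.81, 16 in cluster 24 and 23 in sub-cluster 14.5. Cluster 13 (C1qa, Ms4a7) and cluster 20 (Ccl8, Mrc1) held 46.2% and 34.8% of AptCD4-LNT macrophage-like cells, and cluster 17 (Pf4, Mmp12, Arg1) and cluster 16 (Mmp12, Arg1, Cxcl3) held 41.5% and 27.6% of Untreated ones. In cluster 13 the 10 genes summed to 580 CPM in AptCD4-LNT cells, against 1120 CPM in Untreated cells, and in cluster 20 to 352 CPM in AptCD4-LNT cells, against 681 CPM in Untreated cells, a ratio of -0.95 in each. Given the Untreated cluster shares in both libraries, the median ratio was -1.28 and 9 of 10 genes were past 1.5-fold, a setting in which cluster 17 rests on 10 AptCD4-LNT cells. Fibroblast markers summed to 356 CPM in AptCD4-LNT and 96.5 CPM in Untreated macrophage-like cells, and epithelial markers to 93.6 CPM in AptCD4-LNT and 175 CPM in Untreated ones. Their part in the ratios was not tested beyond the alternative of marker-free cells, here 151 AptCD4-LNT and 1478 Untreated ones.

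Neutrophil-like cells, where most of the 10 genes stood highest, showed the same pattern. Pooled, the genes summed to 1259 CPM in AptCD4-LNT cells and 1686 CPM in Untreated cells, with a median log2 ratio of -0.38, beside 0.23 over all genes. Only Iigp1 and Ifi47 were lower by more than 1.5-fold, 2 of 10 beside 8% of 8677 genes, and none was higher, beside 27.4%. Ifi47 was at 197 CPM in AptCD4-LNT cells, against 318 CPM in Untreated cells (-0.69, -0.84 to -0.54). Iigp1 was at 5.88 CPM on 19 UMIs in AptCD4-LNT cells, against 21.8 CPM on 64 UMIs in Untreated cells (-1.89). Whether those few Iigp1 UMIs were the cells' own RNA was not tested. Igtp, at 187 CPM in AptCD4-LNT cells, against 279 CPM in Untreated cells, and Gbp2, at 303 CPM in AptCD4-LNT cells, against 432 CPM in Untreated cells, had intervals below 0 without reaching 1.5-fold, as did Irgm1 (-0.37). The other 5 genes lay between -0.38 for Gbp4 and 0.02 for Gbp3, with intervals that included 0.

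Each of the 3 neutrophil clusters had a lower summed level in the AptCD4-LNT library. Cluster 11 (S100a9, G0s2, Il1b), with 77.5% of AptCD4-LNT and 23.2% of Untreated neutrophil-like cells, stood at 1420 CPM in AptCD4-LNT cells, against 2402 CPM in Untreated cells (-0.76). Cluster 12 (Prok2, Ccl3, Cxcl3), with 21.1% of AptCD4-LNT and 72.3% of Untreated ones, stood at 766 CPM in AptCD4-LNT cells, against 1591 CPM in Untreated cells (-1.05), and cluster 19 (Ngp, Camp) at 285 CPM in AptCD4-LNT cells, against 680 CPM in Untreated cells (-1.26). With equal cluster shares 9 of 10 genes were past 1.5-fold and the median was -0.84. Fibroblast markers summed to 561 CPM in AptCD4-LNT and 237 CPM in Untreated neutrophil-like cells, and endothelial markers to 12.1 CPM in AptCD4-LNT and 36.8 CPM in Untreated ones. In the 799 AptCD4-LNT and 1908 Untreated neutrophil-like cells with no UMI of other classes' markers, 1 of 10 genes was past 1.5-fold. The part of these markers in the ratios was not tested beyond that. In macrophage-like and neutrophil-like cells scaling to the total leaves a shift of 0.20 and 0.22 over genes with 100 or more UMIs. With that shift set to 0 the member medians were -0.48 and -0.60, and 4 and 6 genes were past 1.5-fold.

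**Figure D4:**
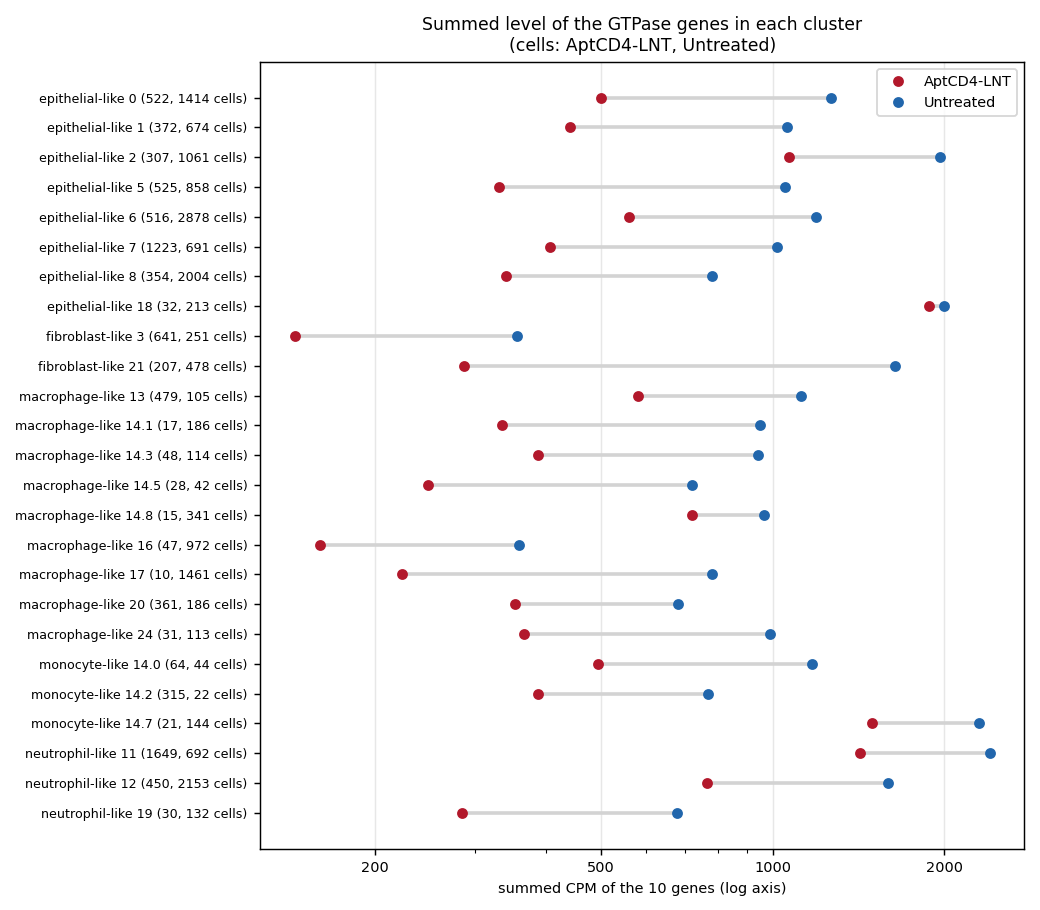
Summed CPM of the 10 genes (log axis) in each cluster of the 5 classes that hold several clusters, AptCD4-LNT in red and Untreated in blue, with the number of cells of each library beside the cluster number. The red point lies left of the blue one in all 25 clusters drawn, and the pair is closest in epithelial cluster 18, at 1883 CPM in AptCD4-LNT cells and 1994 CPM in Untreated cells.

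T-like cells gave no settled direction. Gbp2, Gbp5, Irgm1 and Irgm2 were higher by more than 1.5-fold in AptCD4-LNT T-like cells, 4 of 10 beside 18.5% of 7119 genes, none was lower, beside 11.1%, and the median log2 ratio was 0.52. Gbp5 was at 55.8 CPM on 18 UMIs in AptCD4-LNT T-like cells, against 19.3 CPM on 22 UMIs in Untreated ones (1.53, 0.55 to 2.50), and Irgm2 at 37.2 CPM on 12 UMIs in AptCD4-LNT cells, against 7.88 CPM on 9 UMIs in Untreated cells (2.24, 0.87 to 3.67). The intervals of Gbp2 and Irgm1 included 0, and the other 6 genes lay between 0.21 for Gbp3 and 0.56 for Gbp7. Those values leave out 3 sub-clusters that stayed unnamed, of which 2 were led by genes of more than 1 lineage. Sub-cluster 4.3 (Calca, Il5, Il1rl1) held 24 AptCD4-LNT cells with 539 CPM of the 10 genes and 7 Untreated cells with 734 CPM. Sub-cluster 4.8, led by Krt18 and Krt8 beside Cd3g, held 7 AptCD4-LNT cells with 238 CPM of the 10 genes and 68 Untreated cells with 1515 CPM, and sub-cluster 4.9, led by S100a8 and S100a9 beside Cd3g, held 2 AptCD4-LNT cells with 565 CPM and 22 Untreated cells with 1233 CPM. When the lymphocyte cluster was named without splitting, the median was -0.49, and Gbp2 and Irgm1 changed sign. Epithelial markers in T-like cells summed to 68.2 CPM in the AptCD4-LNT library and 189 CPM in the Untreated library, and myeloid markers to 226 CPM in AptCD4-LNT and 404 CPM in Untreated ones, with C1qb at 0 in the AptCD4-LNT library. Fibroblast markers summed to 344 CPM in AptCD4-LNT and 177 CPM in Untreated T-like cells, and endothelial markers to 89.9 CPM in AptCD4-LNT and 28.0 CPM in Untreated ones, and the part of all these markers in the ratios was not tested.

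The ligand itself was rare. Ifng gave 28 UMIs in all AptCD4-LNT cells, of which 26 lay in 10 T-like cells and 2 in NK-like cells, and 186 UMIs in all Untreated cells, of which 159 lay in 76 T-like cells. A further 17 Untreated UMIs came from 3 fibroblast-like cells. Within T-like cells Ifng was at 80.6 CPM in the AptCD4-LNT library against 139 CPM in the Untreated library (-0.79, -1.45 to -0.18). That interval counts each UMI as independent, although these UMIs gathered in few cells, so no direction is given for Ifng. The share of the class with any Ifng UMI was similar, at 10 of 68 cells in the AptCD4-LNT library and 76 of 473 in the Untreated library. The receptor genes were near level in epithelial-like cells, with Ifngr1 at 75.6 CPM in AptCD4-LNT and 74.5 CPM in Untreated cells and Ifngr2 at 45.2 CPM in AptCD4-LNT and 49.7 CPM in Untreated cells.

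Signalling genes of epithelial-like cells split by gene. Of the 7 listed genes 3 were lower by more than 1.5-fold and none was higher. Over all genes of that class 6.56% were lower and 9.93% higher, and these shares stand beside each list count that follows for epithelial-like cells. Irf1 was at 272 CPM in AptCD4-LNT cells and 264 CPM in Untreated cells (0.04), and the kinases Jak1 and Jak2 differed by 0.22 and 0.09. Of the 10 other GTPase genes 8 were lower and 1, Irgq, named after its value was seen, was higher, with a median of -1.27. Gbp2b, a close paralog of Gbp2, was at 137 CPM in AptCD4-LNT cells, against 379 CPM in Untreated cells (-1.47), and Gm12250, which encodes the IRG Irgb10, at 19.0 CPM in AptCD4-LNT cells, against 68.0 CPM in Untreated cells (-1.84). Other interferon-gamma targets were lower in 6 of 10 cases, with the immunoproteasome gene Psmb9 at 220 CPM in AptCD4-LNT cells, against 466 CPM in Untreated cells (-1.08) and the peptide transporter gene Tap1 at 74.9 CPM in AptCD4-LNT cells, against 156 CPM in Untreated cells (-1.06). B2m (-0.38) and Psmb8 (-0.57), the targets with the most UMIs, did not reach 1.5-fold. Genes known for type I interferon were lower in 11 of 13 cases with a median of -0.82, for example Isg15, a ubiquitin-like modifier, at 50.1 CPM in AptCD4-LNT cells, against 87.0 CPM in Untreated cells (-0.80).

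The same lists varied by class. In fibroblast-like cells 9 of 9 measured interferon-gamma targets were lower, beside 15.6% of all genes, with a median of -2.39, and Cxcl9, a chemokine that draws T cells, was at 15.8 CPM in AptCD4-LNT cells, against 239 CPM in Untreated cells (-3.92). Irf1 was lower there too, at 81.5 CPM in AptCD4-LNT cells, against 133 CPM in Untreated cells (-0.70). Monocyte-like cells had 5 of 9 such targets lower, beside 9.93% of all genes, with a median of -1.16. In neutrophil-like cells Socs1, a feedback inhibitor of the pathway, was at 85.7 CPM in AptCD4-LNT cells, against 393 CPM in Untreated cells (-2.20), and Cd274, which encodes PD-L1, at 336 CPM in AptCD4-LNT cells, against 1018 CPM in Untreated cells (-1.60). The lists of that class were mixed. Of signalling genes 2 of 7 were lower and none higher, and of interferon-gamma targets 3 of 8 were lower and none higher. Of the other GTPases 3 of 5 were higher and 1, Gbp2b (-0.79), was lower. Among those 3 only Gbp9 (0.85) had an interval above 0. The rest stood on few UMIs, such as Gbp8 on 20 in AptCD4-LNT and 9 in Untreated cells, and their intervals included 0. Gm12250 (-0.56, -0.75 to -0.37) had an interval below 0 without reaching 1.5-fold. Over all genes there 8% were lower and 27.4% higher. In macrophage-like cells the medians of signalling genes and targets were 0.08 and 0.01, beside 0.20 over all genes. Of the type I genes of neutrophil-like cells 4 of 10 were higher, beside 27.4% of all genes there, and none was lower, beside 8%, with a median of 0.49, beside 0.23 over all genes. In T-like cells, where the direction of the GTPase genes turned with the naming of sub-clusters, 4 of 7 signalling genes were higher, beside 18.5% of all genes. Irf8 stood at 1342 CPM in AptCD4-LNT cells, against 403 CPM in Untreated cells (1.74). Summed levels there lean on deep cells, such as the 8 AptCD4-LNT cells of sub-cluster 4.4 at a median of 13713 UMIs, against 2650 in the class. Sub-clusters were filled unequally too, with 2 AptCD4-LNT and 115 Untreated cells in 4.7, and the part of either was not tested.

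**Figure D5:**
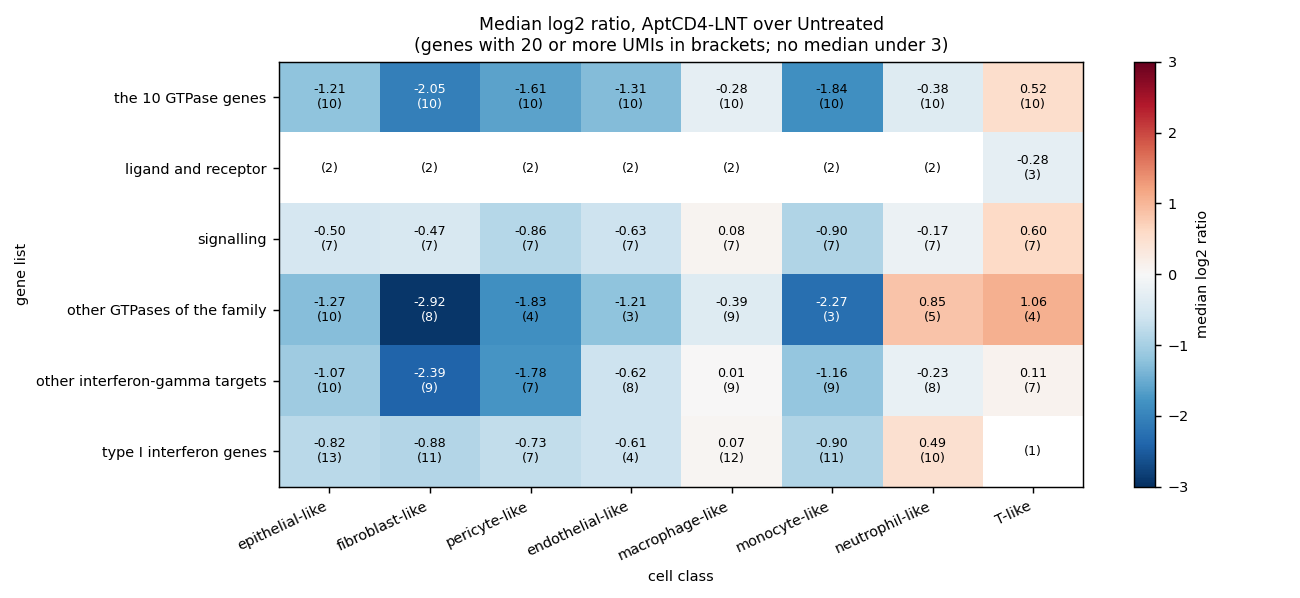
Median log2 ratio, AptCD4-LNT over Untreated, of the 10 GTPase genes (top row) and of 5 lists of related genes (rows) in each cell class (columns), with the number of genes that had 20 or more UMIs in brackets and no median where fewer than 3 did. The 10 genes and the other GTPases are lowest in fibroblast-like cells, at -2.05 and -2.92, and type I interferon genes are at 0.49 in neutrophil-like cells.

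The 10 genes did not follow each other to the same degree across the 16 combinations of class and library. The correlation of log2(CPM + 10) between pairs had a median r of 0.62 over 45 pairs, and ranged from -0.13 for Ifi47 and Iigp1 to 0.93 for Irgm1 and Gbp2. These points share libraries and depth, so r is a description only. Of 13949 genes, those outside the 10 most like their mean included Gbp2b (r = 0.90), Gm12250 (0.89), Dtx3l (0.84), Xaf1 (0.80), Ulk4 (0.80), Herc6 (0.79), Gbp9 (0.77), Parp14 (0.75) and Zfp787 (0.74). Among the 10 themselves Gbp7 was closest to the mean, at 0.91, and Iigp1 farthest, at 0.28, which ranked it 1324th of all genes. Each of the 10 is part of that mean, which raises its r, so these values are not comparable with those of outside genes.

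Classes under 50 cells in a library are given as values. Mature dendritic-like cells, which carry antigen to lymph nodes, numbered 60 in the AptCD4-LNT library and 45 in the Untreated library. Levels of the 10 genes there ran between 10.6 CPM for Iigp1 (4 UMIs) and 63.9 CPM for Ifi47 (24 UMIs) in AptCD4-LNT cells, and between 16.7 CPM for Gbp3 (3 UMIs) and 167 CPM for Iigp1 (30 UMIs) in Untreated cells. NK-like cells numbered 41 in the AptCD4-LNT library and 11 in the Untreated library. No gene had more than 18 UMIs in the AptCD4-LNT ones (Gbp7) or more than 6 in the Untreated ones (Igtp). Irgm1 and Iigp1 had none in the AptCD4-LNT ones, which allows up to 26.6 CPM at a floor of 3 UMIs.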

How the data were processed

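The authors deposited 2 matrices of counts, unnormalised UMIs per gene and barcode. Per the file headers they come from Cell Ranger 7.2.0, and the submitters' processing notes name GRCm39. How reads shared by related genes (such as Gbp2 and Gbp2b, or Igtp and Irgm2) were counted is not given in the sources used here. Their transcript sequences were not compared, so whether this touches their split is not known. Barcodes with fewer than 200 genes or more than 20% mitochondrial UMIs were removed, 78 of the AptCD4-LNT and 39 of the Untreated library. Scrublet at its automatic threshold then took out 226 AptCD4-LNT doublets (2.55%) and 1785 Untreated ones (8.92%), below the 7.14% and 16.0% expected from barcode numbers. Clusters came from scanpy 1.11.5 under Python 3.11.15, with 2000 variable genes (the GTPase genes were not held out), 30 principal components, 15 neighbours and Leiden resolution 1, and the lymphocyte and monocyte clusters were split once more. A cluster took the class whose markers stood highest over the lower quartile of clusters, if the mean log2 excess reached 1 and 3 markers reached 20 CPM, or the class with most markers among its 10 leading genes. That rule was settled after the clusters had been seen, and sub-clusters led by markers of 2 lineages stayed unnamed. The members, gene lists and markers were chosen with earlier results of these data known.

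UMIs were summed per class and library. Intervals, from scipy 1.17.1, are exact Poisson for CPM, exact binomial for shares and conditional binomial for ratios. Only the ratio intervals were checked on simulated counts. Those counts were drawn from the Poisson model that the interval assumes, so the check does not cover UMIs that gather in few cells. PCR and capture error between libraries is not covered. Genes with 20 or more UMIs in a class were counted past 1.5-fold. The values of all 10 GTPase genes were used in every class, singly or as a range, genes of related lists were named from the 4 or fewer with the most UMIs in each list, and the 10 most alike genes came from those with 200 or more UMIs, except for a gene that is not reported here. Alternatives covered doublets, filters, resolution, weighting, scaling, marker-free cells, UMI minimum, fold and thinning.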

Additional observations from a re-analysis of the deposited data

How the results depend on the processing

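Of the 59 ratios past 1.5-fold, 654 recomputed values were had under the alternatives, of which 645 kept their sign and 617 stayed past 1.5-fold. The medians of the epithelial-like, fibroblast-like, pericyte-like, endothelial-like, macrophage-like, monocyte-like and neutrophil-like classes stayed below 0 under every alternative that could be run. The cause of each move below was not tested, unless the setting itself uses fewer cells.

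Without doublet removal the median log2 ratio of the 10 genes was -2.39 in fibroblast-like, -0.68 in macrophage-like (6 genes past 1.5-fold), -1.26 in monocyte-like and -0.39 in T-like cells, with Gbp2 at -1.70 and Irgm1 at -1.16 in the last. At resolution 2 it was -0.69 in monocyte-like cells (6 genes) and -0.49 in T-like cells (Gbp2 -1.39, Irgm1 -0.69), and at resolution 0.5 it was -0.32 in T-like cells (Gbp2 -1.39, Irgm1 -0.42). With clusters not split, an alternative chosen after seeing the data, it was -1.18 in monocyte-like and -0.49 in T-like cells (Gbp2 -1.39, Irgm1 -0.68). Weighting clusters by Untreated shares gave -0.97 in epithelial-like, -1.28 in macrophage-like (9 genes), -0.82 in monocyte-like (6 genes, with Gbp5 at 0.070) and -0.84 in neutrophil-like cells (9 genes). Weighting each cell equally gave -0.67 in macrophage-like cells (7 genes) and 4 genes in neutrophil-like cells. With the median of all genes set to 0, the epithelial-like median was -1.26 and 6 genes were past 1.5-fold in neutrophil-like cells. Marker-free cells, which are fewer and of lower median depth, gave -0.56 in epithelial-like cells (4 genes), -3.41 in monocyte-like cells and 1 gene in neutrophil-like cells.

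At 2-fold the counts were 0 in macrophage-like, 1 in neutrophil-like and 2 in T-like cells, and at a minimum of 50 UMIs the T-like count was 0. The ratio of shares of cells with any of the 10 genes depended on depth. Unthinned it was 0.955 in epithelial-like, 0.883 in fibroblast-like, 1.005 in pericyte-like, where the direction turned, 0.922 in endothelial-like, 0.824 in macrophage-like, 0.601 in monocyte-like and 0.881 in neutrophil-like cells. Thinned to 500 UMIs it was 0.472 in epithelial-like cells, and to 2000 UMIs 0.584 in epithelial-like, 0.436 in fibroblast-like, 0.559 in monocyte-like and 0.887 in neutrophil-like cells.

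No value could be had, for want of 50 cells or of the class, with doublets removed at the expected rate, with marker-free cells or without shared barcodes in pericyte-like cells, with marker-free cells in endothelial-like and T-like cells, at resolution 0.5 in monocyte-like cells and at 2000 UMIs in T-like cells. No paired analysis was possible because each group has 1 library. Depth limits the pericyte-like, endothelial-like, monocyte-like and T-like values, where some genes rest on few UMIs.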
